A study of Mus musculus with 18 samples.

Results

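Choline and phosphatidylcholine metabolism was followed through 10 genes in heart, kidney and liver of mice on a ketogenic diet or on chow. The genes are Gpcpd1, Chka, Chkb, Pcyt1a, Pcyt2, Pemt, Chdh, Bhmt, Gnmt and Lpcat3, which are 10 of the 22609 genes with a row in the deposited tables. The genes were chosen from the pathway with their diet differences in these same libraries known, so those differences are described without a test and support nothing beyond themselves. All 10 passed the filter on low counts in each organ. The mice were wild-type C57BL/6J animals that were started at 4 weeks of age on either a standard chow or a ketogenic food holding 90% fat, 9.7% protein and 0.3% carbohydrate. After 21 days, messenger RNA of heart, kidney or liver tissue was sequenced, which gave 18 libraries in 6 groups of 3 labelled biological replicates. The labels do not say whether the 3 organs of one number came from one animal, and no group carries a transgene or a drug.

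Choline is either phosphorylated and built into phosphatidylcholine, the main phospholipid of most membranes and of lipoproteins, or oxidised to betaine, which hands a methyl group to homocysteine. In the CDP-choline route, a choline kinase, a cytidylyl transferase and a choline phosphotransferase act one after another, and a parallel route uses ethanolamine. Liver has a further source, the methylation of phosphatidylethanolamine with S-adenosylmethionine, and phosphatidylcholine that is broken down to glycerophosphocholine can give its choline back.

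Libraries held 16135276 to 23835383 counts assigned to genes. Levels below are CPM, counts scaled to a common library size, on one scale for all 18 libraries, after a correction for composition (trimmed mean of M-values, TMM). In heart and in liver, ketogenic libraries 1 and 2 were alike almost to within sampling noise, with a median chi-square per gene of 0.669 and 0.674, against 1.24 to 4.34 in the 16 other pairs within a group. Each such pair was averaged and counted as 1 sample in the means and SDs, so n = 2 for those groups. In the model fits they remained 2 libraries, so the SEs and adjusted p-values in heart and liver count them as separate replicates. Marker genes of each organ were high where the label put them. The summed CPM of 6 cardiomyocyte genes was 51500 to 68400 in heart and at most 10.2 elsewhere, with Myl2 at 0 in the livers. Chow heart replicate 3 stood apart, with 7340 CPM of the atrial gene Nppa against 37.3 to 127 in the other hearts, and with fat markers such as Adipoq at 23.4 CPM against at most 0.311. Several other lists moved with the diet. In heart, 6 of 6 macrophage markers were lower (summed CPM 253 to 255 on the ketogenic diet, 420 to 471 on chow), as were 3 of 5 fibroblast and 4 of 5 erythroid markers. In liver, 5 of 6 hepatocyte markers were lower (99100 to 103000 against 164000 to 178000), 4 of 6 periportal markers were lower (5790 to 8070 against 9110 to 9890), and 4 of 6 pericentral markers were higher and 1 lower (16100 to 16200 against 9020 to 9240). In kidney, the 7 fat cell markers summed to 36.7 to 255 CPM on the ketogenic diet and 16.7 to 84.3 on chow, and none of them passed the test, while 2 of 5 fibroblast markers were lower (225 to 320 against 665 to 1040). Ketogenic kidney replicate 1 stood apart, with 739 CPM of Pck1 against 2960 and 3030 in the other ketogenic kidneys and 624 to 733 on chow, and with 322 CPM of Aqp2 against 134 and 114. In liver, 3 of 3 fat cell markers tested (Cfd, Cidec and Lipe) were higher (sums of all 7 at 164 to 238 against 22.5 to 29.5), with Adipoq at most 0.144 CPM. The part of these cells in the values of the 10 genes was not tested. In bulk RNA of an organ, fewer cells of a type and less RNA per cell cannot be told apart.

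The sequence just upstream of a gene holds its proximal promoter. RefSeq lists transcription starts on GRCm38.p6 for 8 of the 10 genes, 13 starts in all. The 250 bases before the start are shown for the 5 genes that have a single listed start and whose liver libraries did not overlap between the diets, so that the sequence can be set beside the levels. Capitals mark the CCAAT box (CCAAT) and the GC box (GGGCGG) on either strand, so that they also read ATTGG and CCGCCC, and GC boxes may overlap each other. The genes are Chka (chr19:3851523-3851772, plus strand), Chkb (chr15:89429928-89430177, minus strand), Lpcat3 (chr6:124662854-124663103, plus strand), Bhmt (chr13:93637759-93638008, minus strand) and Gnmt (chr17:46729166-46729415, minus strand), each written 5′ to 3′ on its own strand.
Chka: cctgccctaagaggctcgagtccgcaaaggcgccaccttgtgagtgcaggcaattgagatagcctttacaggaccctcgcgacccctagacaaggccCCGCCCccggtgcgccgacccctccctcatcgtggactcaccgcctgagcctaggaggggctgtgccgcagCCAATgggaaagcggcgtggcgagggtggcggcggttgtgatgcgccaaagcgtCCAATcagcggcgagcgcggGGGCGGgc
Chkb: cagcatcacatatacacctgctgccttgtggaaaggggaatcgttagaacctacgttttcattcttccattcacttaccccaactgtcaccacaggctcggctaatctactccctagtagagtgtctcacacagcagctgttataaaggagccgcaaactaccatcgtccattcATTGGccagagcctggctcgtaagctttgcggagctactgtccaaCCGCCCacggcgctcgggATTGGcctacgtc
Lpcat3: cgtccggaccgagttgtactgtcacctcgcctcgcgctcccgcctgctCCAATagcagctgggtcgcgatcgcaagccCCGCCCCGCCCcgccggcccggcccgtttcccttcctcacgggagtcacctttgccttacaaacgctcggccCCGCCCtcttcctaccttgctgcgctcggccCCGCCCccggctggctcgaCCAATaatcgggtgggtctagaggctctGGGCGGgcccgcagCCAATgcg
Bhmt: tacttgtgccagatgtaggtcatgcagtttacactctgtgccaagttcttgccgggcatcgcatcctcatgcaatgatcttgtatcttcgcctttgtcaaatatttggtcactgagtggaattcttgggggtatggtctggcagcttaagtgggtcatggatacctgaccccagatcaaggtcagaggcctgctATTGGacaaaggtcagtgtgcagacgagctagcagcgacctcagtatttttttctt
Gnmt: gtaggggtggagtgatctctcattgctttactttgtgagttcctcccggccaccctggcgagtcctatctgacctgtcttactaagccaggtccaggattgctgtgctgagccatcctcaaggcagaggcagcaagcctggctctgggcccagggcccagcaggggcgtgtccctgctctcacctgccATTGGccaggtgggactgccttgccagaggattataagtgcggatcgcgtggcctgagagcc

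The 5 windows were unlike in base composition. Those of Lpcat3 and Chka held 70.0% and 68.0% G and C and carried 5 and 2 GC boxes with 3 and 2 CCAAT boxes. Chkb held 52.4% G and C, with 1 GC box and 2 CCAAT boxes. Bhmt (48.0%) and Gnmt (60.4%), both far higher in liver than in the other organs, had 1 CCAAT box each and no GC box. Both boxes are common: over 32851 RefSeq promoter windows of the same length, 33.8% held a CCAAT box and 32.7% a GC box. The 5 windows were picked by liver levels, and their share with a box was not tested against these. Among the windows of Pemt, Chdh and Pcyt1a, which are not shown, a CCAAT box was found only in 1 of Pemt. Some windows of Chdh and Pcyt1a held GC boxes. None of the 13 windows held an E-box (CACGTG, in 6.02% of all windows), a cyclic AMP response element (TGACGTCA, 1.55%), a D-box (TTATGTAA or TTACGTAA, 0.931%) or AGGTCA repeated directly with 1 base between the copies (0.0335%), each searched on both strands. These are matches of letters in one window and say nothing about binding.

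**Figure D1:**
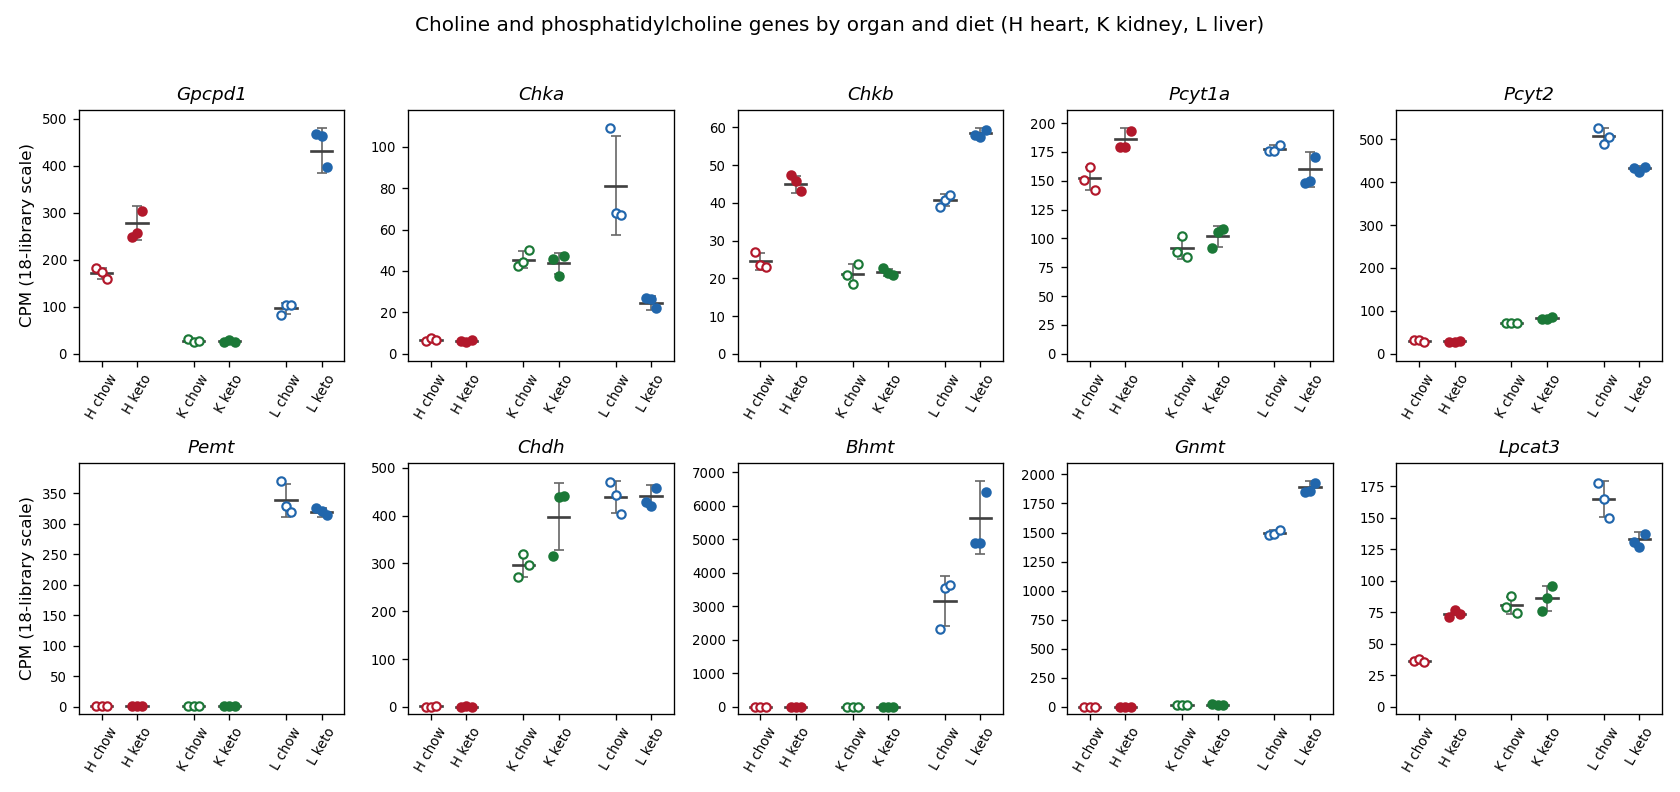
CPM of each of the 10 genes (vertical axes, each from 0) in every library, by organ (H heart, K kidney, L liver) and diet (open chow, filled ketogenic); lines are group means and bars SDs, with the near-identical ketogenic pairs of heart and liver counted as 1 sample. Gpcpd1 rose from 82.7 to 103 CPM in the chow livers to 398 to 468 in the ketogenic livers, and Chka went from 66.8 to 109 CPM down to 22 to 27.1.

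Gpcpd1, the phosphodiesterase that splits glycerophosphocholine into choline and glycerol phosphate, had the largest diet difference of the 10 genes. Its row covers chr2:132354819-132403984 on the minus strand of the mouse build mm9, the build of the deposited tables. In liver it stood at 82.7, 103 and 103 CPM on chow and at 468, 463 and 398 CPM on the ketogenic diet. Group means were 96.5 ± 12 (SD, n = 3) and 432 ± 47.9 CPM (SD, n = 2), a log2 fold change of 2.22 ± 0.11 (SE), or 4.67-fold. The lowest ketogenic liver lay far above the highest chow liver. In heart the levels were 182, 174 and 158 CPM on chow and 249, 256 and 303 CPM on the ketogenic diet, a log2 fold change of 0.65 ± 0.10. Those groups did not overlap either. Kidney had the lowest level and the diets overlapped there, at 24.2 to 31 CPM on chow and 25.1 to 29.3 CPM on the ketogenic diet (−0.04 ± 0.11). The diet difference in liver exceeded that in heart by 1.55 ± 0.16 and that in kidney by 2.22 ± 0.17 log2 units in one model of all libraries, given without a test.

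The choline kinases, which make phosphocholine, went separate ways. Chka (mm9 chr19:3851773-3894367, plus strand) was low in the ketogenic livers, at 27.1, 26.7 and 22 CPM, against 109, 67.8 and 66.8 CPM on chow. Means were 24.5 ± 3.52 (SD, n = 2) and 81.1 ± 23.9 CPM (SD, n = 3), a log2 fold change of −1.66 ± 0.21, or 3.15-fold lower. The groups did not overlap, although chow liver replicate 1 was well above the other chow livers, and without it the log2 fold change was −1.39. In kidney and heart the diets overlapped for Chka, with log2 fold changes of −0.07 ± 0.11 and −0.17 ± 0.14. Heart held little of it, at 5.67 to 7.79 CPM over both diets.

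Chkb (mm9 chr15:89256780-89260358, minus strand), the other choline kinase, which is best known from muscle, was higher on the ketogenic diet in heart and in liver. Hearts held 27, 23.5 and 22.9 CPM on chow and 47.3, 45.7 and 43.2 CPM on the ketogenic diet, a log2 fold change of 0.89 ± 0.08. Livers held 39, 40.8 and 42.2 CPM on chow and 58, 57.5 and 59.4 CPM on the ketogenic diet (0.54 ± 0.08). Neither organ had overlapping groups, and in kidney the diets overlapped at 18.6 to 23.8 CPM (0.01 ± 0.11). Per kilobase of exon the mean level of Chkb stood above that of Chka in each of the 6 groups. The gap widened in the livers, from 21.2 CPM per kb of Chkb against 15.1 of Chka on chow to 30.5 against 4.56 on the ketogenic diet. Chkb lies beside Cpt1b, the carnitine palmitoyltransferase of muscle mitochondria, and the annotation has a readthrough model, BC090627, over both. The BC090627 count was 98.6 to 99.9% of the summed counts of Chkb and Cpt1b in the 18 libraries, while Chkb counts were whole numbers in all 18, so reads in shared exons were counted in full for each model. Cpt1b rose 2.18-fold in heart (log2 fold change 1.12, adjusted p = 0.000357, edgeR quasi-likelihood test with Benjamini-Hochberg adjustment). In liver Cpt1b also rose (0.72 ± 0.18, adjusted p = 0.00666, edgeR), from few reads, with 54 to 95 counts against 622 to 854 of Chkb. In kidney it gave −0.11 ± 0.20 (adjusted p = 0.769, edgeR). How many of the reads on Chkb come from readthrough transcripts was not tested.

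Pcyt1a and Pcyt2 encode the cytidylyl transferases that make CDP-choline and CDP-ethanolamine, the regulated steps of the parallel routes. Their diet differences were small. Pcyt1a (mm9 chr16:32431007-32475151, plus strand) was at 151, 162 and 142 CPM in chow hearts and 179, 179 and 193 CPM in ketogenic hearts (log2 fold change 0.27 ± 0.07), with no overlap. In liver it lay the other way, at 176, 176 and 181 CPM on chow and 148, 150 and 171 CPM on the ketogenic diet (−0.16 ± 0.08), again without overlap. Kidneys overlapped, at 84.1 to 102 and 91.4 to 108 CPM (0.14 ± 0.09). Of the 10 genes, Pcyt1a had the most even levels between organs, with its group means from 91.4 to 186 CPM.

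Pcyt2 (mm9 chr11:120471401-120479204, minus strand) was mainly a liver gene, at 526, 490 and 505 CPM on chow and 433, 423 and 435 CPM on the ketogenic diet, a log2 fold change of −0.21 ± 0.07. The opposite sign held in kidney, at 71.2, 72.5 and 70.8 CPM on chow and 80.2, 81.6 and 86.9 CPM on the ketogenic diet (0.20 ± 0.07). In neither organ did the diets overlap, and the replicates were tight. Hearts overlapped at 28.3 to 31.8 CPM (−0.10 ± 0.07).

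Pemt (mm9 chr11:59784119-59850341, minus strand), which methylates phosphatidylethanolamine to phosphatidylcholine, is known as a liver enzyme. Livers held 370, 329 and 320 CPM on chow and 327, 321 and 314 CPM on the ketogenic diet, and the diets overlapped (−0.06 ± 0.08). Pemt was scarcely counted in the other organs, with 16 to 33 counts per heart and 24 to 45 per kidney. Such counts carry little information about the diet, and the log2 fold changes were −0.03 ± 0.29 in heart and −0.33 ± 0.30 in kidney.

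Gnmt (mm9 chr17:46862613-46866114, minus strand) uses S-adenosylmethionine to methylate glycine and so draws on the same methyl donor as Pemt. Livers held 1480, 1490 and 1520 CPM on chow and 1850, 1860 and 1930 CPM on the ketogenic diet, a log2 fold change of 0.35 ± 0.08, with narrow groups that did not overlap. Kidneys held 13.1 to 21.6 CPM over both diets and overlapped (0.19 ± 0.17), and hearts had 8 to 26 counts (0.57 ± 0.39).

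Bhmt (mm9 chr13:94386846-94407713, minus strand) transfers a methyl group from betaine to homocysteine and was the most abundant of the 10 in liver per length. Chow livers held 2310, 3550 and 3630 CPM and ketogenic livers 4890, 4880 and 6410 CPM. Means were 3160 ± 739 (SD, n = 3) and 5650 ± 1080 CPM (SD, n = 2), a log2 fold change of 0.80 ± 0.19. The spread within each diet was wide, yet the groups did not overlap. Chow liver replicate 1, the lowest, was also the highest for Chka, and without it the value for Bhmt was 0.61. Kidneys held 31 to 105 counts and hearts 1 to 19, and the diets overlapped in both (0.02 ± 0.40 and 0.75 ± 0.70).

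Chdh (mm9 chr14:30822186-30853652, plus strand), the mitochondrial choline dehydrogenase that starts the oxidation of choline to betaine, was abundant in liver and kidney. Livers overlapped, at 470, 442 and 403 CPM on chow and 429, 420 and 457 CPM on the ketogenic diet (0.02 ± 0.08). Kidneys were at 272, 320 and 296 CPM on chow and 316, 438 and 441 CPM on the ketogenic diet, where ketogenic replicate 1 fell within the chow range (0.41 ± 0.14). Hearts had 10, 6 and 70 counts on chow and 12, 18 and 6 on the ketogenic diet. The 70 counts were those of chow heart replicate 3, the library with atrial and fat markers. The heart value was −0.89 ± 0.83 with that library and 0.66 without it, so its sign rests on 1 library. The Chdh exons also overlap Cacna1d on the opposite strand, and counting took the strand into account per the file headers.

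Lpcat3 (mm9 chr6:124613122-124654734, plus strand) puts polyunsaturated acyl chains into lysophosphatidylcholine and so shapes membrane phospholipids. Hearts held 36.5, 37.9 and 36 CPM on chow and 71.6, 77.1 and 73.6 CPM on the ketogenic diet. Means were 36.8 ± 0.968 (SD, n = 3) and 74 ± 0.583 CPM (SD, n = 2), a log2 fold change of 1.00 ± 0.07, which was the largest among the 10 genes in heart. In liver the order was reversed, at 178, 165 and 150 CPM on chow and 131, 127 and 137 CPM on the ketogenic diet (−0.30 ± 0.08). Neither organ had overlapping groups, and in kidney they overlapped at 74.5 to 95.9 CPM (0.08 ± 0.10). The diet difference in heart exceeded that in liver by 1.33 ± 0.13 log2 units, given without a test. Emg1 overlaps its exons on the opposite strand.

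**Figure D2:**
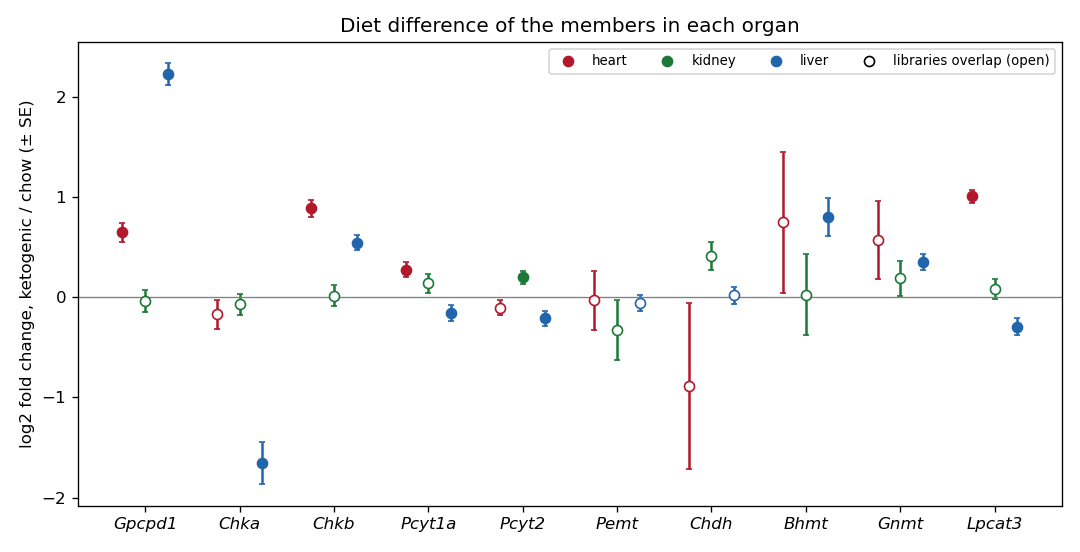
Log2 fold change, ketogenic over chow, of the 10 genes in heart, kidney and liver; bars are SEs of the edgeR fit, and filled points are genes whose 3 and 3 libraries did not overlap. Gpcpd1 at 2.22 and Chka at −1.66 in liver lie farthest from 0, and Lpcat3 lies at 1.00 in heart and −0.30 in liver.

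Set against all genes, the heart had 4 of the 10 genes past an adjusted p of 0.05 in the higher direction (Gpcpd1, Chkb, Pcyt1a and Lpcat3) and 0 in the lower. The background there was 24.7% of the 13411 genes tested, 12.5% higher and 12.2% lower. The same 4 genes had groups that did not overlap, where 44.6% of all genes did so. In kidney 0 of the 10 genes passed, where 9.05% of 14526 genes did (3.59% higher, 5.45% lower), and 1, Pcyt2, had groups apart, against 31.7% of all genes. In liver 4 passed as higher (Gpcpd1, Chkb, Bhmt and Gnmt) and 3 as lower (Chka, Pcyt2 and Lpcat3), where 47.6% of 12947 genes did (24.3% higher, 23.3% lower). Liver groups were apart for 8 genes, those 7 and Pcyt1a, against 57.3% of all genes. Median log2 fold changes of the 10 were 0.42, 0.05 and −0.02 in heart, kidney and liver, beside −0.03, 0.0015 and 0.0032 over all genes tested. Because the rule used this contrast, nothing is read from these counts. With library totals in place of TMM the median of all genes in heart moved by −0.13 log2 units, and the 10 genes moved with it, Pcyt1a to 0.14 and Lpcat3 to 0.87.

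The rule that chose the genes concerns the diets, so levels between organs on chow were tested, over 15171 genes in the 9 chow libraries. The genes were still chosen with earlier results of these data known, and Pemt is known as a liver enzyme. The counts of genes higher in liver are therefore a description. Liver exceeded heart for 9 of the 10 genes, and Gpcpd1 was the exception (log2 difference −0.83 ± 0.12, adjusted p = 4.72e-05, edgeR with Benjamini-Hochberg adjustment). Of all genes 37.5% were higher and 40% lower in liver than in heart. Gpcpd1 was also 6.28-fold lower in kidney than in heart (−2.65 ± 0.12), so that heart had the most of it on chow, at 171 ± 12.5 CPM, and liver overtook heart only on the ketogenic diet, by the levels given above. Its 6 groups ran from ketogenic liver through ketogenic heart, chow heart and chow liver down to the kidneys, and of these neighbours only the 2 kidney groups overlapped.

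Bhmt and Gnmt, both enzymes of methyl metabolism, had the largest differences between liver and heart. Bhmt was 12.89 ± 0.62 log2 units higher in liver than in heart and 10.17 ± 0.53 higher than in kidney (adjusted p = 3.07e-08 and 9.56e-08, edgeR). Gnmt was 10.83 ± 0.24 and 6.64 ± 0.19 higher, and Pemt 8.19 ± 0.18 and 7.85 ± 0.18 higher. Chdh broke this pattern, since kidney held nearly as much as liver: it was 8.36 ± 0.55 log2 units higher in liver and 7.80 ± 0.54 higher in kidney than in heart, and the difference of 0.56 ± 0.37 between liver and kidney was not past the threshold (adjusted p = 0.203, edgeR). Per kilobase of exon, chow livers held 1530 CPM of Bhmt, 1450 of Gnmt, 407 of Pemt and 74.4 of Chdh, and chow kidneys 50.3 of Chdh but 1.32 of Bhmt.

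**Figure D3:**
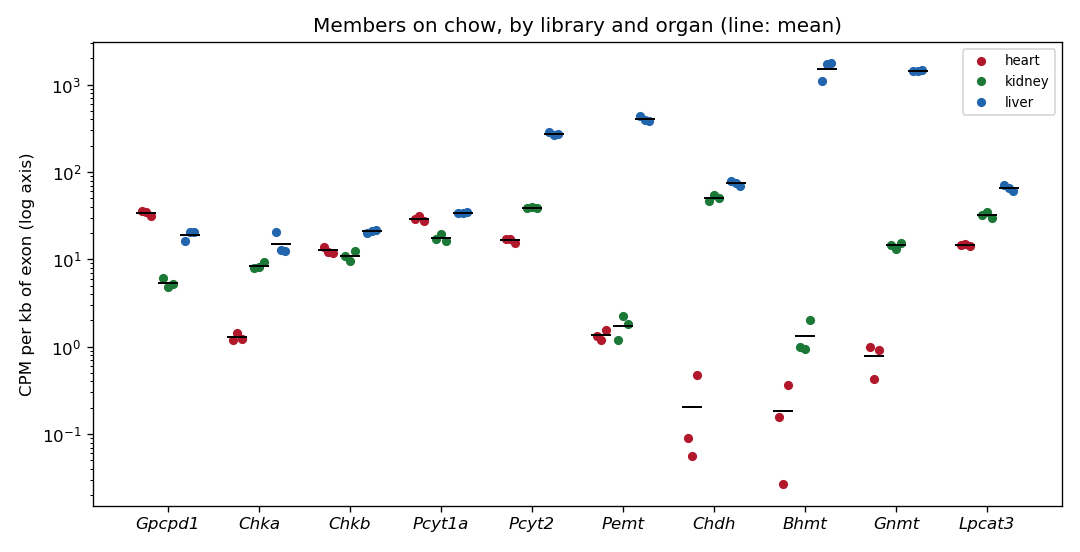
CPM per kb of exon (log axis) of the 10 genes in the 9 chow libraries, coloured by organ, with a line at the mean of 3. Bhmt and Gnmt stand at 1530 and 1450 in liver, Chdh is close in kidney (50.3) and liver (74.4), and Gpcpd1 is highest in heart (33.9).

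Kidney exceeded heart for 6 genes (Chka, Pcyt2, Chdh, Bhmt, Gnmt and Lpcat3) and lay below it for 2 (Gpcpd1 and Pcyt1a), against 37.7% and 34.6% of all genes. Liver exceeded kidney for 9 genes, with Chdh the one that did not pass, and none was lower, against 34.3% and 41.1%. The smaller of these differences depended on the scaling. With library totals in place of TMM the median of all genes moved by −0.94 log2 units between liver and kidney and by −0.57 between liver and heart. Under that scaling 5 of the 10 genes (Gpcpd1, Pcyt2, Pemt, Bhmt and Gnmt) were higher in liver than in kidney, Chka was at −0.13 and Lpcat3 at 0.07, and the liver minus heart difference of Pcyt1a turned from 0.22 to −0.34 and that of Chkb went from 0.73 to 0.16 (adjusted p = 0.222, edgeR). Liver then exceeded heart for 7 of the 10 genes and lay below it for 2, and Pemt became higher in kidney than in heart (0.71, adjusted p = 0.0115, edgeR), which made 7 genes there. Bhmt, Gnmt and Pemt still differed by 5.69 log2 units or more between liver and kidney.

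For the 4 genes with the largest diet difference among those with at least 5 CPM in 1 group, the genes with the most similar profile were sought among 10413 genes, by Pearson's r of log2 CPM over the 18 libraries after subtracting each organ's mean. Chdh is the fourth only by its heart value of −0.889, which comes from 6 to 70 counts and was 0.66 without chow heart replicate 3, and Chkb follows at 0.886. Such r values describe libraries that share organ and diet, and carry no test. Gpcpd1 was most like Eif4a2 (r = 0.986), a translation initiation factor subunit, Bnip3 (0.985), a mitophagy receptor, and Mat2b (0.981), the regulatory subunit of methionine adenosyltransferase. Among the genes most like Chka were St5 (0.951) and St3gal1 (0.944), a sialyltransferase. Lpcat3 was most like Gpam (0.984), the mitochondrial glycerophosphate acyltransferase, Pdk4 (0.974), the kinase that shuts pyruvate dehydrogenase, and Ptpn3 (0.972). For Chdh the best values were lower, with Ces1f (0.903), Pck1 (0.899) and Stard10 (0.897), and chow heart replicate 3 held 260 CPM of Stard10 against 10.9 and 13.9 in the other chow hearts. Outside this rule and chosen after its values were seen, Bhmt and Gnmt were each other's nearest gene (0.872), as was BC090627 for Chkb (0.956), with which it shares reads.

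The pathway around the 10 genes was read from a list of 67 other genes in 7 roles, of which 65 had a row and 2 (Flvcr1 and Flvcr2) were not analysed here. In liver 21 of 57 tested were higher and 13 lower on the ketogenic diet, in heart 11 and 3 of 52, and in kidney 6 and 0 of 60, by edgeR's quasi-likelihood test with an adjusted p under 0.05 over all genes of the organ. Over all genes tested, 24.3% were higher and 23.3% lower in liver, 12.5% and 12.2% in heart, and 3.59% and 5.45% in kidney. With either direction counted, the listed genes passed 34 of 57 times in liver, 14 of 52 in heart and 6 of 60 in kidney, against 47.6%, 24.7% and 9.05% of all genes, so the heart and kidney shares lay near the background. Their median log2 fold changes were 0.09, 0.03 and 0.15, beside the medians of all genes given above. At an unadjusted p under 0.05, 4 of the 60 were lower in kidney, and DESeq2 called 1. The kidney counts depended on single libraries: without ketogenic replicate 1 they were 22 higher and 6 lower, and without any 1 of the other 5 libraries they were 2 and 0. In heart the counts were 16 and 5 without chow replicate 3. The higher count there was 5 without ketogenic replicate 1 or 2, 7 without ketogenic replicate 3, and 6 with the near-identical pair summed to 1 library.

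Of the CDP-choline and CDP-ethanolamine genes, 3 of 7 were higher and 2 lower in liver, 3 of 6 higher in heart and 2 of 7 higher in kidney, few genes beside the shares of all genes just given. Of the listed genes tested in liver, Chpt1 had the smallest adjusted p. Chpt1, the choline phosphotransferase that finishes phosphatidylcholine in the Golgi, rose from 136, 109 and 116 CPM in chow livers to 433, 397 and 398 CPM in ketogenic livers (log2 fold change 1.79 ± 0.10, adjusted p = 3.507e-07, edgeR). It also rose in heart (0.41 ± 0.07, adjusted p = 0.00528), while in kidney the groups did not overlap but the test was not passed (0.40 ± 0.13, adjusted p = 0.0954). Cept1, which uses CDP-choline or CDP-ethanolamine, rose by 0.26 ± 0.09 in liver (adjusted p = 0.0249). The call for Cept1 was lost with the near-identical pair summed (adjusted p = 0.0933) and without any 1 of 4 libraries, ketogenic or chow replicates 1 and 2 (0.0528 to 0.129). On the ethanolamine side, the kinase Etnk1 rose in heart (0.37 ± 0.06, adjusted p = 0.0037, edgeR) and Etnk2 in kidney (1.13 ± 0.18, adjusted p = 0.00759) and liver (0.31 ± 0.12, adjusted p = 0.0486). The liver call of Etnk2 was lost without any 1 of 4 libraries (ketogenic replicates 1 and 3 and chow replicates 1 and 3), with adjusted p of 0.0502 to 0.151 in edgeR. Ept1, the ethanolamine phosphotransferase, named after its values were seen, fell in liver from 118 to 156 CPM to 90 to 94.6 CPM (−0.51 ± 0.10, adjusted p = 0.00192, edgeR). In heart Ept1 gave 0.27 ± 0.08 (adjusted p = 0.0499), a call lost with the pair summed (0.0887), in DESeq2 (0.0766) and without any 1 of 5 libraries, all but chow replicate 3 (0.0695 to 0.137). Agxt2l1, the phosphoethanolamine lyase that removes the product of these kinases, rose in kidney from 3.02 to 4.06 CPM to 8.56 to 14.9 CPM and fell in liver from 209 to 286 CPM to 68.5 to 112 CPM (1.84 ± 0.23 and −1.46 ± 0.24, adjusted p = 0.00311 and 0.00362, edgeR). Its groups did not overlap in either organ, and its liver value was added after it was seen.

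**Figure D4:**
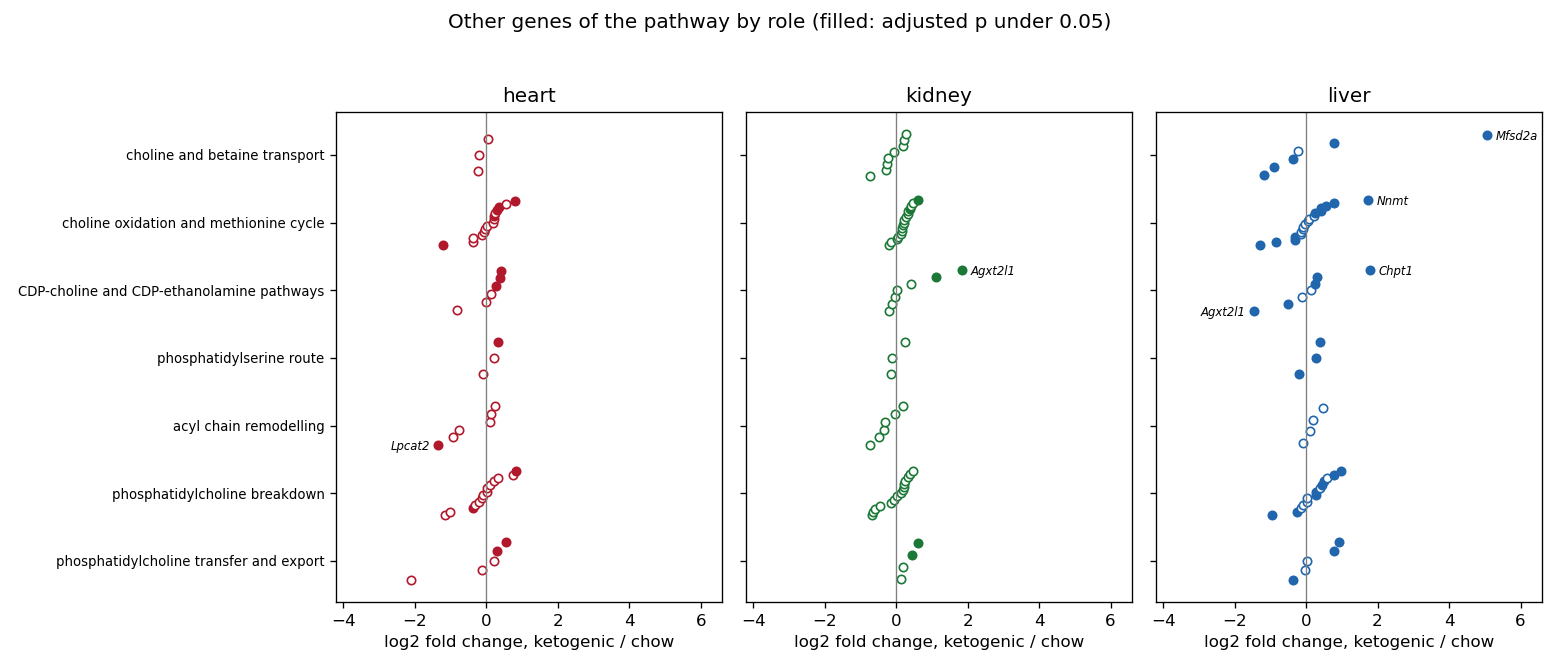
Log2 fold change, ketogenic over chow, of the other listed pathway genes in each organ, by role; filled points passed an adjusted p of 0.05 in edgeR's test, and those beyond 1.3 log2 units are named. Liver has 34 filled points, 21 to the right of 0 and 13 to the left, with Mfsd2a farthest at 5.06, and kidney has 6.

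Around Chdh, Bhmt and Gnmt, genes of choline oxidation and the methionine cycle moved in both directions in liver and heart. In liver 6 of 18 rose and 4 fell (24.3% and 23.3% of all genes), in heart 4 of 15 rose and 1 fell (12.5% and 12.2%), and in kidney 2 of 17 rose and 0 fell (3.59% and 5.45%). At an unadjusted p under 0.05 in edgeR, 5 were higher and 0 lower in kidney, and DESeq2 called 3 and 0. Aldh9a1, an aldehyde dehydrogenase that can act on betaine aldehyde, rose in all 3 organs (0.81 ± 0.11 in heart, 0.61 ± 0.13 in kidney and 0.43 ± 0.08 in liver, adjusted p = 0.00137, 0.0221 and 0.000762, edgeR), with its liver value added after it was seen. Dmgdh, which oxidises the dimethylglycine that Bhmt leaves, rose in liver (0.41 ± 0.09, adjusted p = 0.00304) and kidney (0.38 ± 0.09, adjusted p = 0.0376). The kidney calls of Aldh9a1 and Dmgdh were lost without any 1 of the 5 libraries other than ketogenic replicate 1 (adjusted p = 0.0545 to 0.111 and 0.084 to 0.152). Mat2b rose in liver from 36.8 to 39.1 CPM to 61.2 to 67.4 CPM (0.79 ± 0.08, adjusted p = 1.442e-05, edgeR), whereas Mat1a, the main liver methionine adenosyltransferase, gave 0.09 ± 0.10. Bhmt2, a relative of Bhmt that uses S-methylmethionine, fell slightly in liver (−0.31 ± 0.07, adjusted p = 0.00562), opposite in sign to Bhmt. Sardh and Aldh7a1 gave −0.09 ± 0.10 and −0.04 ± 0.08 in liver, and Ahcy gave 0.26 ± 0.10, with an adjusted p just under 0.05 that went to 0.0501 to 0.143 without any 1 of 5 libraries, all but chow replicate 3. Nnmt, which uses S-adenosylmethionine to methylate nicotinamide, fell in heart (−1.22 ± 0.19, adjusted p = 0.00285, edgeR). In liver, where it and Cbs were singled out after their values were seen, Nnmt rose from 19.6 to 41.9 CPM to 88.1 to 107 CPM (1.73 ± 0.27, adjusted p = 0.00383, edgeR) and Cbs, which draws homocysteine off to cystathionine, fell (−0.84 ± 0.15, adjusted p = 0.00198). In heart, Mat2a and Ahcyl2 rose by 0.36 ± 0.06 and 0.30 ± 0.07 (adjusted p = 0.00448 and 0.0118, edgeR). Without ketogenic replicate 1 or 2 the adjusted p of Ahcyl2 was 0.0549 or 0.0552, and it was 0.0829 with library totals in place of TMM.

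Of the transport genes, 2 of 6 rose and 3 fell in liver, and 0 of 3 in heart and 0 of 8 in kidney passed in edgeR. Of all genes 47.6%, 24.7% and 9.05% passed in these organs, and the lists are short. At an unadjusted p under 0.05, 1 was lower in heart and 2 in kidney, and DESeq2 called 0 and 1. Slc44a1, a choline transporter, fell in liver from 63.6 to 75.2 CPM to 34.6 to 38.8 CPM (−0.90 ± 0.09, adjusted p = 1.487e-05, edgeR), and its relative Slc44a3 fell by 1.19 ± 0.15 (adjusted p = 8.169e-05). Mfsd2a, a lysophosphatidylcholine transporter singled out after its values were seen, rose in liver from 2.64, 3.71 and 10.4 CPM to 142, 153 and 253 CPM (5.06 ± 0.61, adjusted p = 0.00314, edgeR). Hearts held at most 0.0795 CPM of it. Kidneys overlapped, at 23.1 to 35.2 CPM on chow and 12.9 to 25.3 CPM on the ketogenic diet (−0.73 ± 0.28, adjusted p = 0.165, edgeR).

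Of the breakdown genes, 6 of 14 rose and 2 fell in liver, 1 of 14 rose and 1 fell in heart, and 0 of 15 passed in kidney in edgeR, where 3 were higher and 2 lower at an unadjusted p under 0.05 and DESeq2 called 0. The shares of all genes were 24.3% higher and 23.3% lower in liver, 12.5% and 12.2% in heart, and 9.05% either way in kidney. Pnpla7, a lysophospholipase that yields glycerophosphocholine, rose in heart from 22 to 23.3 CPM to 37.2 to 42.5 CPM (0.83 ± 0.08, adjusted p = 0.000282, edgeR) and by 0.27 ± 0.09 in liver (adjusted p = 0.0233). The liver call of Pnpla7 was lost with the near-identical pair summed (adjusted p = 0.083) and when any 1 of 4 libraries was left out, ketogenic replicates 1 and 2 and chow replicates 2 and 3 (0.0655 to 0.0931). In liver Lypla1, an acyl-protein thioesterase also named as a lysophospholipase, rose by 0.77 ± 0.08 (adjusted p = 2.961e-05, edgeR), and the phospholipase D gene Pld1 fell by 0.94 ± 0.10 (adjusted p = 2.303e-05). Gde1, a glycerophosphodiester phosphodiesterase singled out after its values were seen, rose in liver (0.99 ± 0.13, adjusted p = 0.000117, edgeR) and fell in heart (−0.38 ± 0.11, adjusted p = 0.0354), and the heart call was lost with the near-identical pair summed (adjusted p = 0.0846) and without ketogenic replicate 1, 2 or 3 or chow replicate 2 (0.0598 to 0.139).

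The remaining roles have short lists. Of all genes, 24.3% were higher and 23.3% lower in liver, 12.5% and 12.2% in heart, and 3.59% and 5.45% in kidney. Of the acyl chain remodelling genes beside Lpcat3, 1 of 6 passed in heart and 0 of 6 in kidney and 0 of 4 in liver in edgeR. In kidney and liver 0 of them passed at an unadjusted p under 0.05 or in DESeq2. The gene that passed in heart was Lpcat2, which fell from 3.38 to 3.69 CPM to 1.27 to 1.55 CPM (−1.35 ± 0.21, adjusted p = 0.003, edgeR), the opposite sign to Lpcat3. In heart 6 of 6 macrophage, 3 of 5 fibroblast and 4 of 5 erythroid markers were also lower. The part of these cells in the Lpcat2 value was not tested. Of the transfer and export genes, 2 of 5 were higher and 1 lower in liver, 2 of 5 higher in heart and 2 of 4 higher in kidney. The lower one, named after its values were seen, was Abca1, the cholesterol and phospholipid exporter, which went from 688 to 956 CPM to 609 to 625 CPM in liver (−0.37 ± 0.11, adjusted p = 0.0173, edgeR). That call was lost with the near-identical pair summed (0.0544) and without ketogenic replicate 1 or 2 (0.0562 and 0.0527). Abcb4, the canalicular flippase that loads phosphatidylcholine into bile, rose in liver from 368 to 403 CPM to 713 to 735 CPM (0.93 ± 0.08, adjusted p = 3.773e-06, edgeR). Its value in heart was 0.55 ± 0.13 (adjusted p = 0.0165), a call lost with the near-identical pair summed (0.0711) and without ketogenic replicate 1 or 2 or chow replicate 1 (0.0527 to 0.0738). The phosphatidylcholine transfer protein Pctp rose in liver (0.79 ± 0.10, adjusted p = 6.116e-05, edgeR) and kidney (0.60 ± 0.15, adjusted p = 0.0439), and Stard10 rose in kidney (0.45 ± 0.11, adjusted p = 0.0413). Both kidney calls were lost without any 1 of the 5 libraries other than ketogenic replicate 1 (adjusted p = 0.112 to 0.157 for Pctp and 0.0763 to 0.164 for Stard10). The phosphatidylserine route, with 3 genes, had 2 higher and 1 lower in liver, 1 higher in heart and 0 of 3 in kidney, where 1 was higher at an unadjusted p under 0.05 and DESeq2 called 0.

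For named pathway genes that passed in more than 1 organ, the diet effects of the organs were compared in one model of the 18 libraries. Between heart and liver 5 of 7 differed, where 32.7% of 15495 genes did, and between kidney and liver 2 of 5, where 29.2% did. Those shares cover all genes and not only genes that passed in both organs, so the counts cannot be read against them. The 1 gene tested between heart and kidney, Aldh9a1, gave 0.19 ± 0.16 (adjusted p = 0.587, edgeR), where 5.43% of genes passed. Of these 13 tests, 6 involve a value that was singled out after it was seen (Ept1, Gde1, Nnmt and Agxt2l1, and Aldh9a1 in liver against each other organ), so the counts are a description. Other tests, such as those of Pnpla7, named in heart, and Etnk2, named in kidney, reuse a small adjusted p that named the gene.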

How the data were processed

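Messenger RNA libraries were stranded, from RNA with an integrity number above 4 per the labels' protocols. The submitters' processing notes name HISAT2 2.1.0 and featureCounts 1.5.0, with SAMtools and bcl2fastq. Per the file headers, read pairs were counted on exons of the mm9 annotation with strand setting 2 and a minimum mapping quality of 2. The deposited values are estimated counts, because reads that map to several places were counted as fractions; reads over several genes were counted whole for each, as the values of Chkb show. Counts were rounded here.

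For each organ, genes kept by filterByExpr were scaled by TMM and fitted with edgeR 4.0.16 (robust quasi-likelihood test, R 4.3.3) for diet. Adjusted p-values are Benjamini-Hochberg over all genes tested, with 0.05 as the threshold. Organs on chow were compared in 1 model of 9 libraries, and diet effects between organs in 1 model of 18. SEs come from the F statistic. The members and lists were chosen with earlier results of these data known. Named pathway genes were Cept1, Chpt1, Etnk1, Mat1a, Ahcy, Bhmt2, Dmgdh, Sardh, Aldh7a1, Slc44a1 and Abcb4, 1 gene that is not reported here, and up to 8 per organ with the smallest adjusted p among those that passed, with Etnk2 and Pnpla7 also given for liver; Mfsd2a, Nnmt, Agxt2l1, Cbs, Aldh9a1 and Abca1 in liver and Gde1 and Ept1 in heart and liver were chosen after their values were seen; values of the fixed genes that did not pass are given for liver, and for Chpt1 in kidney. The kidney value of Mfsd2a was also given after it was seen. Likeness used a prior count of 3 and genes with a mean log2 CPM of at least 2. Alternatives were RLE and total count scaling, other filters, DESeq2 1.42.0, limma-voom (limma 3.58.1), a fold threshold, a replicate block, 1 model for all libraries, the near-identical pairs summed and leaving out each library. The code was tested on simulated data with known changes. Of the calls at 0.05 there, 5.23% were false with the heart setting, 8.6% with kidney and 9.5% with liver. Of the simulated 1.5-fold changes, 55.2%, 62.7% and 76.1% were recovered. The simulated libraries were independent, with no near-identical pair, and far fewer genes were changed than passed in the real fits. These shares may therefore not hold for the real fits. P-values measure the spread between the labelled replicates.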

Additional observations from a re-analysis of the deposited data

Results flagged for a closer look

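Of 13 tests of named pathway genes that passed in 2 organs, 7 found unequal diet effects (edgeR interaction contrast, Benjamini-Hochberg adjustment over 15495 genes), beside 32.7% of all genes between heart and liver and 29.2% between kidney and liver. Those shares are not limited to genes that passed in both organs, so they are no like background for the count. Between heart and liver the difference in log2 fold change was −1.344 for Chpt1 (adjusted p = 9.33e-06) and 0.5925 for Pnpla7 (0.00214). Between kidney and liver it was 0.8586 for Etnk2 (0.00406). Pnpla7 was named for its small adjusted p in heart, and Etnk2 for that in kidney. Their differences from liver reuse those values, so they too are a description. For the other 4, a value was singled out after it was seen, so the difference is given as a description. It was −1.339 for Gde1, −2.922 for Nnmt and 0.8033 for Ept1 between heart and liver, and 3.343 for Agxt2l1 between kidney and liver. These 4 had fitted values of opposite sign in the organs compared and had passed in both, so a difference was all but fixed beforehand.

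In 3 cases every ketogenic library of one organ lay on one side of its chow libraries, and those of another organ on the other. Between heart and liver the difference was 0.4618 log2 units for Pcyt1a and 1.33 for Lpcat3. It was 0.4489 for Pcyt2 between kidney and liver. These differences were not tested. Diets did not overlap, in either direction, for 44.6% of all genes in heart, 31.7% in kidney and 57.3% in liver. How many of all genes lay in opposite directions in a pair of organs was not counted. The genes were chosen with their diet differences known, so the 3 cases are a description.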

How the results depend on the processing

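The counts of pathway genes were the values that moved most. In heart, the 11 higher genes became 6 with total count scaling, 1 when tested against a 1.5-fold change and 6 with the near-identical pair summed. The 3 lower genes became 8 with total count scaling, 5 with DESeq2, 5 with a CPM filter, 8 at an adjusted p under 0.1 and 5 with all 18 libraries in 1 model. In kidney the 6 higher genes became 1 against 1.5-fold, and the 0 lower genes became 1 with DESeq2. In liver the 21 higher and 13 lower genes became 6 and 4 against 1.5-fold. Members higher in liver than in heart on chow fell from 9 to 7 with total count scaling, and members higher in liver than in kidney from 9 to 5 with total count scaling and to 5 against a 2-fold difference. Leaving out 1 library gave 5 to 16 higher and 2 to 5 lower in heart, 2 to 22 higher and 0 to 6 lower in kidney, and 16 to 20 higher and 10 to 13 lower in liver. For the members on chow it gave 8 to 9 higher in liver than heart, 6 to 7 in kidney than heart, and 9 to 10 in liver than kidney. The cause of these moves was not tested, apart from the fewer libraries or the stricter threshold itself.

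Same-numbered libraries of the 2 diets did not deviate together (correlations of −0.123 to 0.0859). With 3 libraries per group, centred on their mean, this check cannot exclude that the numbers pair them. With the replicate block, heart had 9 higher and 5 lower, kidney 2 and 1, and liver 20 and 12.

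Between kidney and liver, the Dmgdh difference of 0.01 turned to −0.0342 with the pairs summed, and Aldh7a1 in liver, at −0.04, ranged from −0.0755 to 0.0103 when 1 library was left out. Of the members' diet differences under the alternatives, 489 values lay within 1 SD of the main value and 9 did not. The 489 include the adjusted p under 0.1 and the test against 1.5-fold, which cannot move a log2 fold change. Chdh and Bhmt in heart went to 0.66 and 1.82 without chow replicate 3. Members with a median under 50 counts in a group (Pemt, Chdh, Bhmt and Gnmt in heart, Pemt in kidney) had SEs of 0.29 to 0.83, and Bhmt in kidney, at 31 to 105 counts, had 0.40.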
